A study of Mus musculus with 5 samples.

Results

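The genes described are 10 genes of bile acid synthesis, conjugation, transport and FXR-SHP control in mouse liver, taken by symbol from a table of 33589 rows, in which each of the 10 had 1 row. They are Cyp7a1, Cyp8b1, Cyp27a1 and Cyp7b1 (synthesis), Slc27a5 and Baat (conjugation), Slc10a1 and Abcb11 (transport), and Nr1h4 and Nr0b2 (control). The study measured RNA by paired-end sequencing in 5 liver libraries of male mice of 6 weeks that received a high-fat diet for 4 weeks. In 3 knockout livers (Lyve1-Cre;Hegfl/fl) a Cre recombinase driven by Lyve1 was combined with floxed alleles of Heg1, and in 2 control livers (Hegfl/fl) the same floxed alleles were present without Cre. Lyve1 is known from lymphatic and liver sinusoidal endothelium, whereas the 10 genes are known mainly as genes of hepatocytes, so the Cre and these transcripts are expected in different cells. Age, sex and diet were shared by all 5 libraries, and the labels state neither litter, batch, hour of sampling nor whether the libraries come from separate animals, so every SD and p-value covers only how these libraries differ, which may be technical.

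Values are given in FPKM, a unit scaled for transcript length and library size that allows levels to be compared between genes but carries no depth. Each library summed to 797692 to 820498 FPKM and held 10614 to 10945 genes at 1 FPKM or more. The series title speaks of hepatocytes and the labels of liver. Sinusoidal endothelial markers (11 of 11 tested, summed level 157 to 218 FPKM in knockouts and 168 to 193 FPKM in controls) and Kupffer cell markers (9 of 9 tested, 325 to 417 FPKM in knockouts and 237 to 395 FPKM in controls) were present beside hepatocyte markers (78103 to 91087 FPKM in knockouts and 89359 to 93051 FPKM in controls), so the values are read as those of whole liver, where fewer cells of a type and less RNA per cell cannot be told apart. Erythrocyte transcripts stood highest in knockout 1 (6 rows summing to 1752 FPKM, against 306 and 171 in the other knockouts and 159 and 171 in controls, with Hbb-b1 and Hbb-bs holding the same values). Stellate cell markers summed to 172 to 247 FPKM in knockouts and 220 and 221 FPKM in controls, and of 7 pancreas markers 6 were at 0 in every liver. Heg1 itself had 0.45, 0.43 and 0.50 FPKM in knockouts and 0.48 and 0.35 FPKM in controls, so its level in whole liver did not separate the genotypes (exact two-sided permutation p = 0.5), and the labels do not say which part of the gene is floxed.

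Bile acids are made from cholesterol in hepatocytes. In the classic pathway CYP7A1 takes the first and rate-limiting step and CYP8B1 directs the product towards cholic acid, while in the alternative pathway CYP27A1 and CYP7B1 act on the side chain and on oxysterols. SLC27A5 activates bile acids to CoA esters and BAAT joins them to taurine or glycine, after which ABCB11 pumps the bile salts into bile and SLC10A1 takes them back up from sinusoidal blood. Bile acids bind the nuclear receptor FXR, encoded by Nr1h4, which induces Nr0b2 and Abcb11, and the Nr0b2 product SHP restrains Cyp7a1 and Cyp8b1 through the factors LRH-1 (Nr5a2) and HNF4A.

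Promoter sequences of RefSeq (build GRCm38.p6, the assembly also called mm10) were matched for 6 of the 10 genes. The 3 shown are those that held a match to the letters searched. Each line holds the 250 bases before the annotated start, 5′ to 3′ on the gene's strand, in lower case with motif matches in capitals. The letters searched, on both strands, were CAAGGNCA (the half-site bound by LRH-1), CAAAGTCCA (a part of the direct repeat bound by HNF4A) and AGGNCANTGACCT (the inverted repeat bound by FXR).
Cyp8b1 (chr9:121916306-121916555, minus strand): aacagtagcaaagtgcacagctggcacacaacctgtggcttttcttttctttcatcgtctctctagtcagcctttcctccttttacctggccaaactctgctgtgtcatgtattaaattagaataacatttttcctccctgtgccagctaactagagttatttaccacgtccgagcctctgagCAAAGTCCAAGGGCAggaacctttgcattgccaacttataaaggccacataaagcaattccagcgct
Nr0b2 (chr4:133553126-133553375, plus strand): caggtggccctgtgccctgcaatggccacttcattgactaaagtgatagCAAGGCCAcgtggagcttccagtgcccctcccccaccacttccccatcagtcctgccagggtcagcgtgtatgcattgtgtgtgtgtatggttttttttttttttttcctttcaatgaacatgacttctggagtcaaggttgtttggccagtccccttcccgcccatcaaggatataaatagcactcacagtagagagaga
Abcb11 (chr2:69342617-69342866, minus strand): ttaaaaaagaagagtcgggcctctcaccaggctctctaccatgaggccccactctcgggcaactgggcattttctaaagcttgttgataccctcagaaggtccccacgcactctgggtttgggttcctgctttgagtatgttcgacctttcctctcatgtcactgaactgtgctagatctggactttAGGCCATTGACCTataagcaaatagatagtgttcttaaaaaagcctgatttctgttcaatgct
In Cyp8b1 the HNF4A letters (bases 67 to 59 before the start) and the LRH-1 half-site (bases 60 to 53) overlap at their ends. Nr0b2 holds an LRH-1 half-site 201 to 194 bases before its start but no match to the FXR letters, and Abcb11 holds an FXR inverted repeat at 63 to 51 bases. Of all 32851 promoter windows of this length, 5.53% hold the LRH-1 letters, 0.384% the HNF4A letters and 0.0335% the FXR letters. A match describes the sequence and says nothing of binding in these livers. Lack of a match covers only these letters in these 250 bases, and not variant or more distant sites. The windows of Cyp27a1, Nr1h4 and Slc10a1 (with 2 annotated starts) held no match.

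The level of the 10 genes spanned a wide range. Slc27a5 was the most abundant, with a mean of 429 FPKM over the 5 livers, ahead of Slc10a1 (399 FPKM) and Cyp27a1 (279 FPKM). Cyp7b1 (133 FPKM), Baat (117.6 FPKM), Cyp8b1 (108 FPKM) and Abcb11 (93.2 FPKM) formed the middle, and Nr1h4 (61.6 FPKM), Nr0b2 (38.9 FPKM) and Cyp7a1 (35.6 FPKM) were lowest. Only between Slc10a1 and Cyp27a1 did the values of neighbours in this order not overlap across the 5 livers, so the order of the other neighbours is not separated from their spread.

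The 10 genes split into a steady and a variable set, a split seen in the values and not fixed beforehand. Cyp7b1, Cyp7a1, Nr0b2 and Cyp8b1 differed by 6.10, 5.49, 4.59 and 3.52 times between the highest and the lowest liver. The other 6 genes differed by 1.16 times (Baat) to 1.49 times (Nr1h4). For scale, the ratio of highest to lowest FPKM + 1 exceeded 3 in the 4 variable genes and in 173 of the 10820 genes with a mean of at least 1 FPKM (1.60%), with a median of 1.32 over those genes. Much of this variation lay within genotype. The SD of log2(FPKM + 1) within genotype was 1.002 for Cyp7a1, 0.96 for Cyp7b1, 0.68 for Nr0b2 and 0.57 for Cyp8b1, at or above the 97.6th percentile of the genes tested, and 0.086 for Slc27a5.

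**Figure D1:**
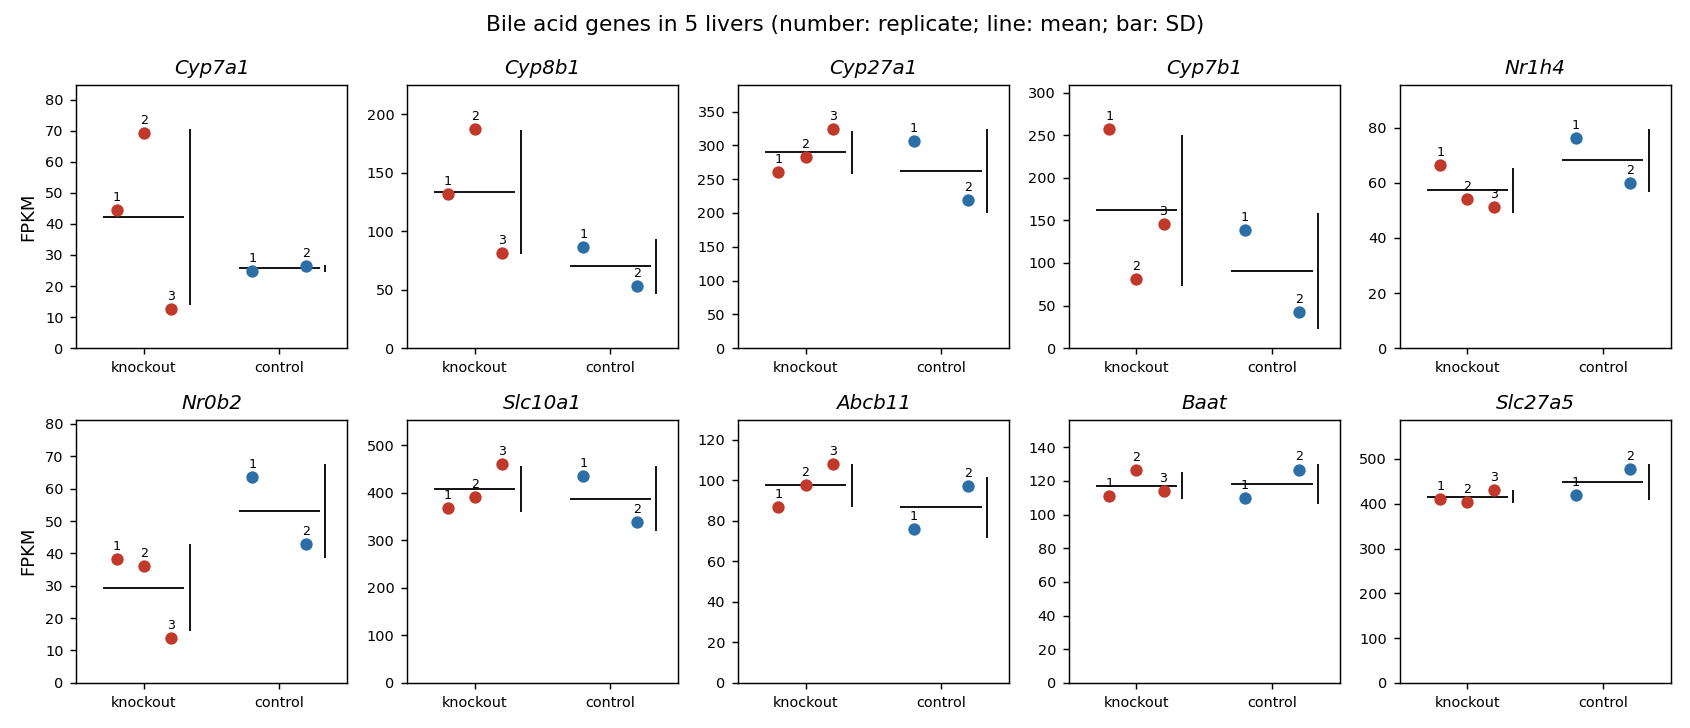
FPKM of the 10 bile acid genes by liver, 3 knockouts left and 2 controls right in each panel, with a horizontal line for the mean, a vertical bar for the SD and the replicate number above each point, on linear axes from 0. Nr0b2 is the only gene whose groups do not overlap, and Cyp7a1 spans 12.6 to 69.3 FPKM among the knockouts but 24.9 to 26.4 FPKM in the controls.

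Whether these genes differ between knockout and control livers was tested with limma on log2(FPKM + 1) over all 10820 genes. None of the 10 passed with Benjamini-Hochberg adjustment at 0.05, nor did any gene of the table (0%), and the smallest adjusted p among the 10 was 0.70 (limma). At an unadjusted p under 0.05 stood 1 of the 10, Cyp8b1, against 7% of all genes. That number was 2 of 10 without knockout 3, Cyp7a1 and Cyp8b1 (5.89% of all genes). Without knockout 1 it was 1, which was Nr0b2 and not Cyp8b1 (7.10%), and without knockout 2 it was 0 (6.24%). It was also 0 of 10 after median-of-ratios scaling (6.23%), after quantile normalization (5.55%) and with library weights (7.44%). Without a filter (6.05%) and with a filter at 5 FPKM (7.37%) it was 0 of 10 as well. Leaving out a control leaves only 1 control, so no number is given for those settings. Of all genes at this level 572 were higher and 185 lower in knockouts, a split that became 310 and 364 after median-of-ratios scaling and 279 and 321 after quantile normalization. Groups did not overlap for 1 of the 10, Nr0b2, which was lower, against 6.38% of all genes in that direction and 25.3% in either. The mean was higher in knockouts for 6 genes and lower for 4, with a median log2 fold change of 0.12 against 0.061 over all genes, of which 64.2% were higher (50.7% after median-of-ratios scaling).

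**Figure D2:**
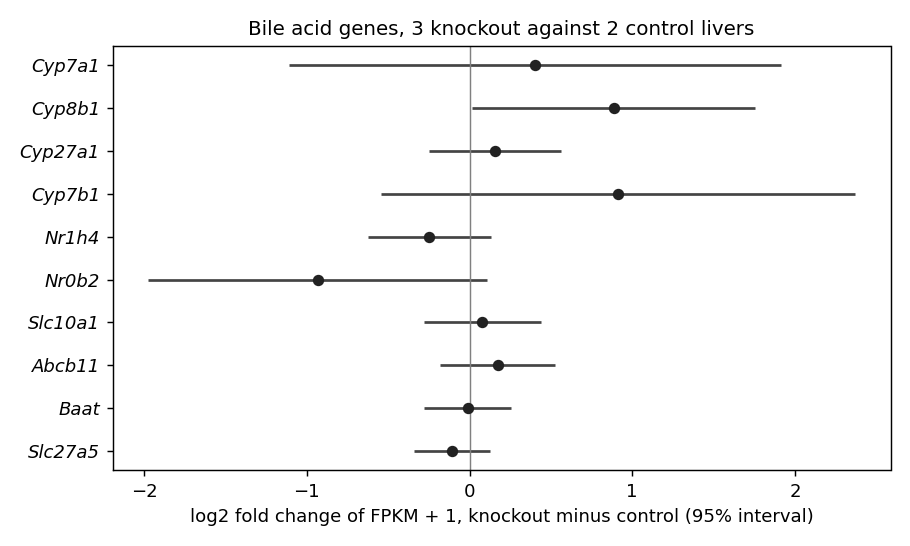
Log2 fold change of FPKM + 1, knockout minus control, of the 10 bile acid genes with its 95% interval from limma (3 knockout and 2 control livers). Only the interval of Cyp8b1 leaves out 0, and the intervals of Cyp7a1, Cyp7b1 and Nr0b2 are the widest.

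Of the classic pathway, Cyp7a1 (ENSMUSG00000028240.2, chromosome 4, 6265612 to 6275633, minus strand, 6 exons) had 44.6, 69.3 and 12.6 FPKM in knockout livers, against 24.9 and 26.4 FPKM in control livers. Knockouts 1 and 2 lay above both controls and knockout 3 below both, so the groups overlap although the controls are close together. The means were 42.2 ± 28.4 FPKM in knockouts and 25.7 ± 1.03 FPKM in controls (SD, n = 3 and 2). Its log2 fold change was 0.40 (SE 0.63, 95% interval -1.11 to 1.92, limma adjusted p = 0.885). It was -0.096 without knockout 2 and 1.09 without knockout 3.

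Cyp8b1 (ENSMUSG00000050445.4, chromosome 9, 121914356 to 121916305, minus strand, 1 exon) had 132, 188 and 81.2 FPKM in knockout livers and 86.5 and 53.3 FPKM in control livers. Again knockouts 1 and 2 stood above both controls, and knockout 3 lay between the controls. The means were 134 ± 53.3 FPKM in knockouts and 69.9 ± 23.5 FPKM in controls, a ratio of 1.91. Its log2 fold change of 0.89 (SE 0.36, 95% interval 0.016 to 1.76) had an adjusted p of 0.70 in limma. Its unadjusted p was 0.047 and stayed under 0.05 in 4 of the 12 alternative settings but not in the other 8, where it reached 0.256 (limma, without control 2). This gene stood at rank 707 of 10820 by p, and its sign held in each of the 12 alternative settings, with values between 0.54 and 1.23. Leaving out knockout 3, the libraries gave 1.202 (SE 0.28) for Cyp8b1 and 1.09 (SE 0.22) for Cyp7a1, with limma adjusted p of 0.769 and 0.733.

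Of the alternative pathway, Cyp27a1 (ENSMUSG00000026170.6, chromosome 1, 74713574 to 74737892, plus strand), a mitochondrial sterol hydroxylase, had 261, 283 and 324 FPKM in knockouts and 306 and 219 FPKM in controls. Knockouts 1 and 2 lay between the controls and knockout 3 above both. Cyp27a1 differed by 0.16 on the log2 scale (SE 0.17, 95% interval -0.25 to 0.56, limma adjusted p = 0.844). Cyp7b1 (ENSMUSG00000039519.6, chromosome 3, 18071950 to 18243338, minus strand), an oxysterol hydroxylase known to be more abundant in male than in female mouse liver, had 258, 81.7 and 146 FPKM in knockouts and 139 and 42.2 FPKM in controls. Knockout 1 was the highest of the 5 livers and control 2 the lowest, with control 1 close to knockout 3. The log2 fold change of Cyp7b1 was 0.91 (SE 0.61, 95% interval -0.54 to 2.37, limma adjusted p = 0.775), and it was 0.067 without control 2 and 1.76 without control 1. A small nuclear RNA gene on the same strand within Cyp7b1, Gm23686, shares no exonic base with it and was listed at 0 in all 5 livers.

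The conjugation genes were the steadiest. Slc27a5 (ENSMUSG00000030382.15, chromosome 7, 12988346 to 12998192, minus strand) had 410, 405 and 432 FPKM in knockouts and 420 and 478 FPKM in controls. Its log2 fold change was -0.11 (SE 0.098, 95% interval -0.34 to 0.13, limma adjusted p = 0.815). Baat (ENSMUSG00000039653.9, chromosome 4, 49489422 to 49506557, minus strand) had 111, 126 and 114 FPKM in knockouts and 110 and 127 FPKM in controls. The knockouts lay within the controls' range, a difference of -0.011 on the log2 scale (SE 0.11, 95% interval -0.28 to 0.26, limma adjusted p = 0.988). For both genes the interval leaves out a 2-fold difference in either direction, that is, a log2 value of 1.

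Of the transporters, Slc10a1 (ENSMUSG00000021135.8, chromosome 12, 80953183 to 80968705, minus strand), which encodes the sodium-dependent bile salt importer NTCP, had 368, 391 and 461 FPKM in knockouts and 435 and 338 FPKM in controls. Its log2 fold change was 0.078 (SE 0.15, 95% interval -0.28 to 0.44, limma adjusted p = 0.910), with knockout 3 the highest and control 2 the lowest of the 5 livers. Abcb11 (ENSMUSG00000027048.15, chromosome 2, 69238282 to 69342616, minus strand), which encodes the canalicular export pump BSEP, had 86.8, 97.6 and 108 FPKM in knockouts and 76.0 and 97.3 FPKM in controls. The log2 fold change of Abcb11 was 0.17 (SE 0.15, 95% interval -0.18 to 0.53, limma adjusted p = 0.801). It was -0.0017 without control 1. GENCODE M21 places 2 genes on the opposite strand within Abcb11, Gm13613 and Gm13614, whose exons share 136 and 19 bases with exons of Abcb11. Strand use in the authors' counting is not stated, so in these bases reads of the genes cannot be told apart.

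Of the control genes, Nr1h4 (ENSMUSG00000047638.15, chromosome 10, 89454234 to 89533585, minus strand), the bile acid receptor FXR, had 66.4, 54.3 and 51.1 FPKM in knockouts and 76.3 and 60.0 FPKM in controls. Knockouts 2 and 3 lay below both controls and knockout 1 between them. Its log2 fold change was -0.25 (SE 0.16, 95% interval -0.62 to 0.13, limma adjusted p = 0.768). Nr0b2 (ENSMUSG00000037583.2, chromosome 4, 133553376 to 133556536, plus strand), the corepressor SHP, had 38.2, 36.1 and 13.8 FPKM in knockouts and 63.5 and 42.8 FPKM in controls. All 3 knockouts lay below both controls, with knockout 1 and control 2 separated by a small gap and knockout 3 far below the rest. The means were 29.4 ± 13.5 FPKM in knockouts and 53.2 ± 14.6 FPKM in controls, a ratio of 0.553. On the log2 scale the difference was -0.93 (SE 0.43, 95% interval -1.98 to 0.11, limma adjusted p = 0.718), and it was -0.48 without knockout 3 and -1.21 without control 2. Nr0b2 kept its sign in all 12 alternative settings, as did Nr1h4, and neither gene passed in any setting with both controls. Because the groups of Nr0b2 do not overlap, leaving out 1 library could not have turned its sign.

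**Figure D3:**
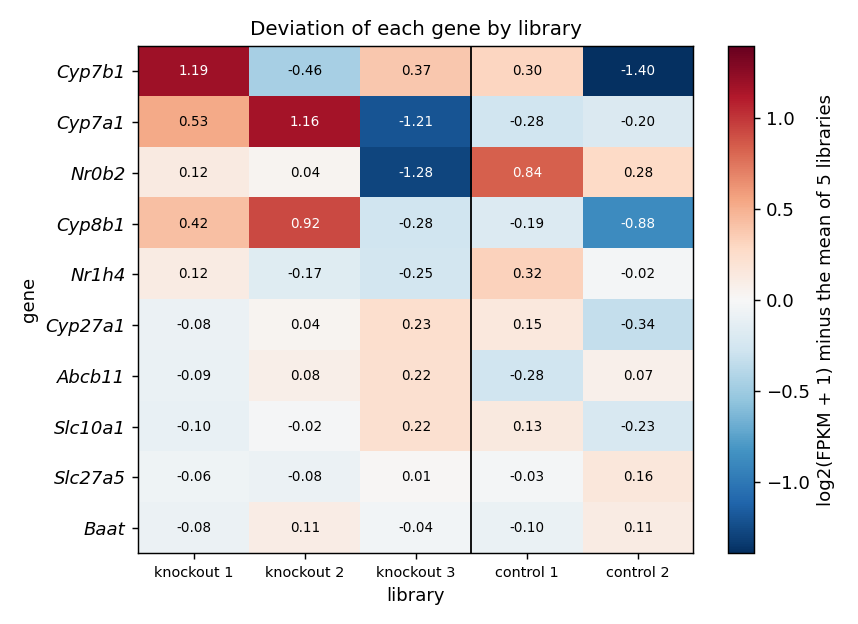
Deviation of log2(FPKM + 1) of each gene (rows, ordered by the ratio of highest to lowest liver) from its mean over the 5 livers (columns, 3 knockouts left of the line and 2 controls right of it). Knockout 3 is lowest for both Cyp7a1 (-1.21) and Nr0b2 (-1.28), and Cyp7a1 and Cyp8b1 are highest in knockout 2 (1.16 and 0.92).

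Set side by side, livers of the same genotype differed in profile. Knockout 2 had the highest Cyp7a1 and Cyp8b1 of the 5 livers together with the next-to-lowest Nr0b2. Knockout 3 had the lowest Cyp7a1 and the lowest Nr0b2 at the same time, together with the highest Cyp27a1, Slc10a1 and Abcb11. Knockout 1 had the highest Cyp7b1. Among pairs of the 10 genes the closest profiles, by root mean square difference of centred log2 values over the 5 livers, were those of Cyp27a1 and Slc10a1 (0.056), whereas Cyp7a1 and Cyp8b1 differed by 0.53, Cyp8b1 and Nr0b2 by 0.92 and Cyp7a1 and Cyp7b1 by 1.21.

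**Figure D4:**
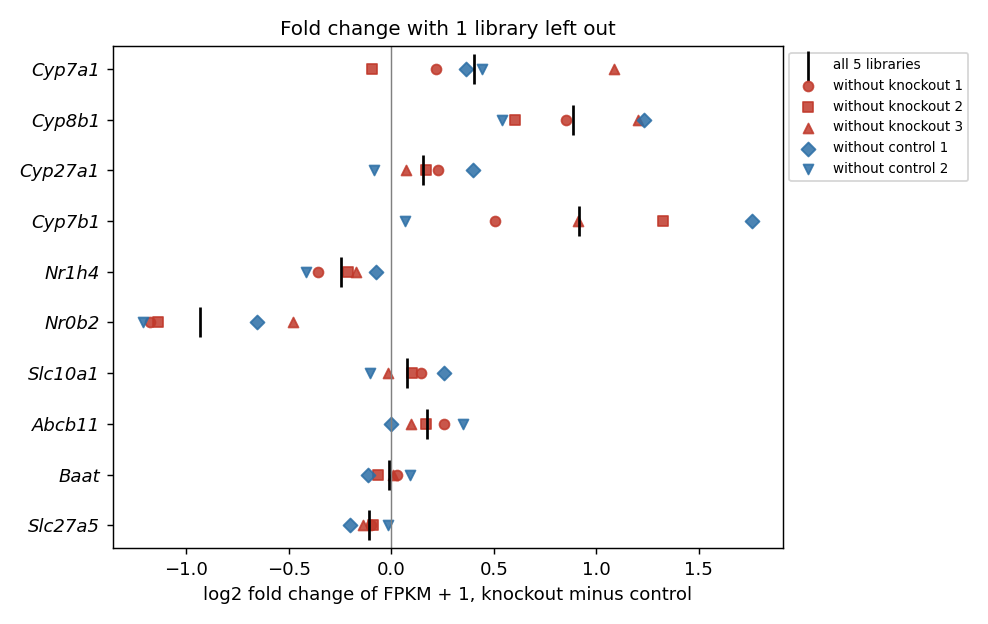
Log2 fold change of FPKM + 1, knockout minus control, of each gene with all 5 livers (bar) and with 1 liver left out (symbols, red for a knockout and blue for a control left out). Cyp7a1 ranges from -0.096 to 1.09 and Cyp7b1 from 0.067 to 1.76, while Cyp8b1 stays above 0 and Nr0b2 below 0 in all 5.

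Ratios of 2 genes within a liver do not depend on how libraries are scaled. The Nr0b2 to Nr1h4 ratio of FPKM was 0.576, 0.665 and 0.271 in knockouts and 0.832 and 0.713 in controls, lower in 3 of 3 knockouts than in either control. The difference of mean log2 ratios was -0.71 (exact two-sided permutation p = 0.3, adjusted p = 0.84 over 6 ratios), where 10 splits of the livers allow no p under 0.1. Without knockout 3 that difference was -0.32. The Cyp8b1 to Cyp7a1 ratio was 2.96, 2.71 and 6.43 in knockouts and 3.47 and 2.02 in controls, with overlapping groups (difference 0.49, exact permutation p = 0.6). Knockout 3 had the highest value, and the difference was 0.099 without it and 0.10 without control 2. The Cyp7b1 to Cyp7a1 ratio, alternative over classic pathway, was 5.77, 1.18 and 11.6 in knockouts and 5.57 and 1.60 in controls (difference 0.52, exact permutation p = 0.7). For Cyp27a1 to Cyp7a1 the ratio was 5.85, 4.08 and 25.7 in knockouts and 12.3 and 8.29 in controls (difference -0.25, exact permutation p = 0.9). Abcb11 to Slc10a1, export over import, was 0.236, 0.250 and 0.235 in knockouts and 0.175 and 0.288 in controls, so all knockouts lay within the controls' range (difference 0.099, exact permutation p = 0.7). Slc27a5 to Baat was 3.69, 3.20 and 3.79 in knockouts and 3.83 and 3.77 in controls (difference -0.098, exact permutation p = 0.6). None of the 6 ratios passed.

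Beyond the 10, 58 further genes of synthesis, transport and control were looked up, of which 50 passed the filter at a mean of 1 FPKM. None passed the adjusted test (0 higher, 0 lower). Of the 50, 28 had a higher and 22 a lower mean in knockouts (20 and 30 after median-of-ratios scaling), and the median log2 fold change was 0.022. At an unadjusted p under 0.05 there were 9, 2 of them higher, against 5.29% of all genes, and 7 lower, against 1.71% of all genes. The share of all genes that were lower depends on scaling, with 185 of 10820 here and 364 of 10816 after median-of-ratios scaling. The 7 lower were Acox2, Acot8, Ephx1, Abcc3, Abcg5, Nr1i2 and Nr1i3, and the 2 higher Abcb4 and Foxa2. The number under 0.05 was 5 of 51 without knockout 1 (7.10% of all genes), 9 of 50 without knockout 2 (6.24%) and 4 of 48 without knockout 3 (5.89%). It was 8 of 50 after median-of-ratios scaling (6.23%) and 7 of 50 after quantile normalization (5.55%). With library weights it was 9 of 50 (7.44%), and with replicate number as a block 12 of 50 (8.93%). Leaving out a control leaves only 1 control, so no number under 0.05 is given for those settings. The numbers above therefore do not show how far the 9 of 50 rests on either control. With 1 control left out, the median log2 fold change was -0.010 (without control 1) and 0.036 (without control 2).

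Among the 16 tested of 17 further enzymes, 8 were higher and 8 lower, with a median of -0.014. Acox2, the peroxisomal oxidase that shortens the bile acid side chain, had 84.2, 101 and 90.5 FPKM in knockouts and 109 and 116.8 FPKM in controls, without overlap (log2 fold change -0.30, SE 0.11, limma adjusted p = 0.70). Acot8, a peroxisomal thioesterase, had 13.7, 14.6 and 12.97 FPKM in knockouts and 18.8 and 15.9 FPKM in controls (log2 fold change -0.31). Cyp39a1, an oxysterol hydroxylase, had 6.21, 7.67 and 16.8 FPKM in knockouts and 15.0 and 14.8 FPKM in controls, so that knockouts 1 and 2 were low and knockout 3 was the highest liver, opposite to their places for Cyp7a1. Its log2 fold change was -0.62 (SE 0.36), and -1.01 to -0.36 with 1 library left out. Cyp46a1, a cholesterol hydroxylase known from brain, was at 0.65 to 2.27 FPKM in knockouts and 2.16 and 2.32 FPKM in controls, and Amacr, a racemase of the side chain, had -0.056 to 0.51 as the 95% interval of its log2 fold change. Hsd3b7, which acts on the hydroxylated sterols that CYP7A1 and CYP7B1 make, had 248, 268 and 234 FPKM in knockouts and 244 and 248 FPKM in controls (log2 fold change 0.020, 95% interval -0.21 to 0.25). Akr1d1, the steroid reductase of the ring, had a log2 fold change of -0.12 (SE 0.27), and -0.38 to 0.15 with 1 library left out. Cyp2c70, which makes the muricholic acids of mice, had 703, 386 and 524 FPKM in knockouts and 588 and 314 FPKM in controls, with knockout 1 highest and control 2 lowest, as for Cyp7b1.

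The 15 tested of 18 further transport genes had a median log2 fold change of -0.10, with 6 higher and 9 lower. Abcc3, a basolateral exporter of conjugates, had 34.2, 26.2 and 44.4 FPKM in knockouts and 52.0 and 53.3 FPKM in controls. All 3 knockouts lay below both controls (log2 fold change -0.61, SE 0.21, 95% interval -1.11 to -0.11, limma adjusted p = 0.70). Ephx1, an epoxide hydrolase also proposed in sinusoidal bile acid uptake, had 107, 137 and 112 FPKM in knockouts and 142 and 177 FPKM in controls (log2 fold change -0.42). Abcb4, which moves phosphatidylcholine into bile, had 55.9, 57.7 and 58.4 FPKM in knockouts and 45.9 and 51.4 FPKM in controls, all knockouts above both controls (log2 fold change 0.23). Abcg5, a subunit of the sterol exporter into bile, had 32.9, 55.7 and 41.5 FPKM in knockouts and 55.2 and 69.6 FPKM in controls (log2 fold change -0.54, SE 0.22), with knockout 2 just above control 1. Slco1a1, a sinusoidal importer, had a log2 fold change of 0.38 (SE 0.22), which lay between 0.026 and 0.72 with 1 library left out, while Slco1b2 had 0.024 (SE 0.11) and the canalicular exporter Abcc2 0.060 (SE 0.10). The basolateral exporter Slc51b had 0.68, 0.35 and 2.22 FPKM in knockouts and 0.70 and 1.86 FPKM in controls. Abcc4, another basolateral exporter, lay under the filter at 0.42 to 0.58 FPKM in knockouts and 0.46 and 0.49 FPKM in controls.

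**Figure D5:**
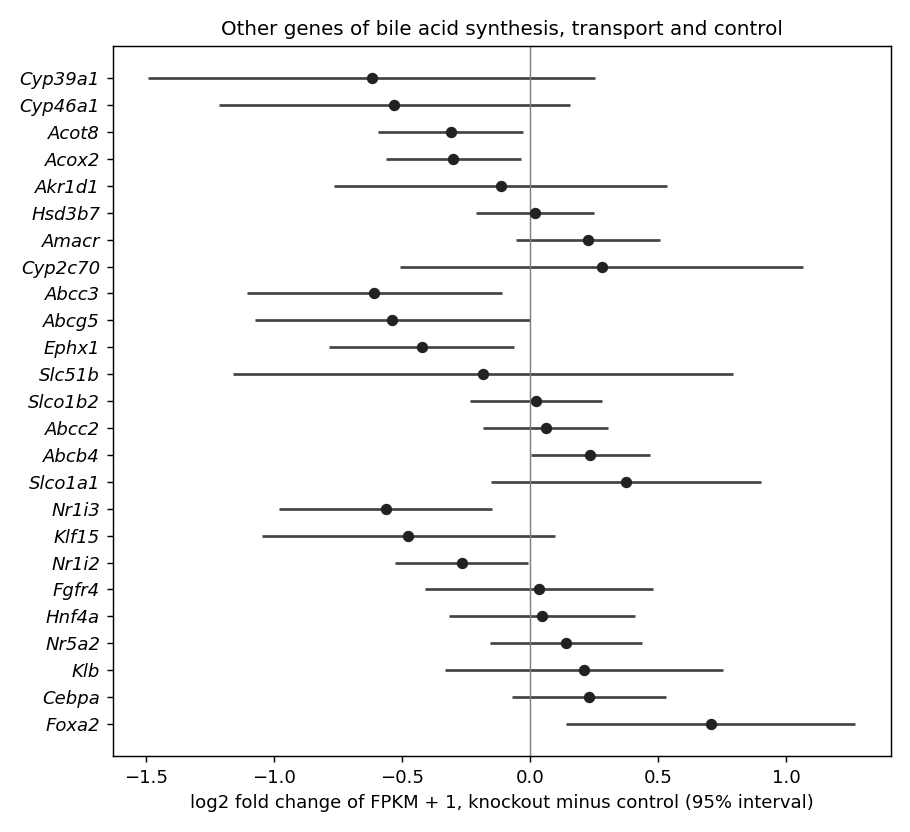
Log2 fold change of FPKM + 1, knockout minus control, with 95% intervals from limma, of further genes of synthesis (top 8), transport (next 8) and control (last 9). The intervals of Acot8, Acox2, Abcc3, Abcg5, Ephx1, Nr1i3 and Nr1i2 lie below 0 and those of Abcb4 and Foxa2 above 0, and none of these genes passed the adjusted test.

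Regulators, 19 tested of 23, had a median of 0.13, with 14 higher and 5 lower. The factors through which SHP is known to act showed small differences. Nr5a2, LRH-1, had 11.3, 12.7 and 12.9 FPKM in knockouts and 10.1 and 12.04 FPKM in controls (log2 fold change 0.14, 95% interval -0.16 to 0.44), and Hnf4a had 159, 156 and 123 FPKM in knockouts and 156 and 127 FPKM in controls (log2 fold change 0.045, 95% interval -0.32 to 0.41). The receptor pair for the gut hormone FGF15, Fgfr4 and Klb, had log2 fold changes of 0.036 (SE 0.19) and 0.21 (SE 0.23), and Fgf15 itself, a hormone of the ileum, was listed at 0 in all 5 livers. Nr1i3, the drug receptor CAR, had 113, 120 and 81.2 FPKM in knockouts and 152 and 154 FPKM in controls, and Nr1i2, the drug receptor PXR, had 20.5, 22.9 and 24.1 FPKM in knockouts and 27.1 and 27.4 FPKM in controls. For both, all knockouts lay below both controls (log2 fold changes -0.56 and -0.27, limma adjusted p = 0.70 each). Foxa2, a forkhead factor known for limiting the hepatic bile acid load, had 14.1, 22.1 and 25.1 FPKM in knockouts and 11.2 and 12.5 FPKM in controls, without overlap (log2 fold change 0.71, SE 0.23). Klf15, a Krüppel-like factor linked to bile acid synthesis, had 83.8, 84.7 and 50.3 FPKM in knockouts and 91.7 and 107 FPKM in controls (log2 fold change -0.48, SE 0.24, and -0.60 to -0.23 with 1 library left out), lowest in knockout 3, as were Cyp7a1 and Nr0b2. Cebpa had a log2 fold change of 0.23 (SE 0.13).

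Cyp7a1 and Nr0b2 are known to follow the daily clock, and the labels give no hour of sampling. Of 19 clock genes 16 were tested, 10 higher and 6 lower, with a median of 0.098 and none passing. Dbp, a clock output factor that acts on Cyp7a1, had 121, 113 and 97.4 FPKM in knockouts and 98.2 and 74.2 FPKM in controls (log2 fold change 0.36, SE 0.16, and 0.16 to 0.56 with 1 library left out). Bhlhe40, a repressor of the clock, had 46.3, 36.2 and 36.8 FPKM in knockouts and 57.6 and 52.3 FPKM in controls, all knockouts below both controls (log2 fold change -0.46, SE 0.14, limma adjusted p = 0.70). Rora had a log2 fold change of 0.30 and Tef of 0.17. The part of the clock in the values of Cyp7a1, Cyp8b1 and Nr0b2 was not tested. Cyp7a1 and Cyp27a1 are also known as genes of pericentral hepatocytes, and the other 8 tested pericentral markers had a median of 0.18 with 6 higher and 2 lower, none of them with separated groups. Lgr5, a pericentral marker under the filter, had 1.07, 1.11 and 1.22 FPKM in knockouts and 0.28 and 0.71 FPKM in controls, without overlap. With Lgr5 included, the summed level was 4640, 4233 and 3952 FPKM in knockouts and 5263 and 4046 FPKM in controls, mostly Cyp2e1. Of 10 tested periportal markers 2 were higher and 8 lower, with a median of -0.20. For 3 of them (Etnppl, Pck1 and Ass1) all knockouts lay below both controls, against 6.38% of all genes in that direction. Etnppl, a phospholyase, had 22.8, 29.8 and 21.1 FPKM in knockouts and 35.5 and 43.4 FPKM in controls (log2 fold change -0.67, SE 0.17, limma adjusted p = 0.69). The periportal markers summed to 43394, 46027 and 56053 FPKM in knockouts and 56384 and 57222 FPKM in controls, mostly Alb, and the part of zonation in the values of the 10 genes was not tested. Bile duct markers summed to 112, 90.3 and 101 FPKM in knockouts and 66.3 and 85.6 FPKM in controls, with Spp1 the largest part in each liver. Anxa4, the next largest, had 24.7, 24.4 and 26.6 FPKM in knockouts and 24.8 and 26.6 FPKM in controls. Spp1, a gene not confined to ducts, had 66.4, 47.8 and 50.4 FPKM in knockouts and 26.0 and 38.4 FPKM in controls. All knockouts lay above both controls (log2 fold change 0.76, SE 0.21, limma adjusted p = 0.70). The defining marker Krt19 had 2.11, 1.16 and 1.87 FPKM in knockouts and 1.44 and 0.72 FPKM in controls. Its groups overlapped (log2 fold change 0.39), as did those of Epcam (0.40). Under the filter, Sox9 had 1.5, 1.1 and 0.79 FPKM in knockouts and 0.64 and 0.73 FPKM in controls, without overlap. Tspan8 had 1.06, 1.17 and 1.22 FPKM in knockouts and 0.74 and 0.79 FPKM in controls, also without overlap. Krt7, Cftr and Sctr, likewise under the filter, had overlapping groups. Of 6 tested bile duct markers 4 were higher and 2 lower, and their part in the values above was not tested.

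The genes closest in profile to 3 of the variable genes were searched among the other 10819 genes tested, by root mean square difference of centred log2(FPKM + 1) over the 5 livers. For Cyp7a1 they were Nnmt (0.32), G0s2 (0.36) and the pseudogene Rps10-ps2 (0.39). Nnmt, nicotinamide N-methyltransferase, had 201, 276 and 100 FPKM in knockouts and 150 and 151 FPKM in controls, so that it too was lowest in knockout 3 and highest in knockout 2. For Cyp8b1 they were Gm36185 (0.14), Gm8893 (0.20) and Elovl3 (0.21), a fatty acid elongase with 34.1, 45.5 and 17.5 FPKM in knockouts and 18.0 and 16.8 FPKM in controls. Gm36185 had 1.84, 2.74 and 0.63 FPKM in knockouts and 0.41 and 0.10 FPKM in controls, and reached the filter only through knockouts 1 and 2. The genes closest to Nr0b2 were Ip6k2 (0.26), Spata2l (0.29) and Blm (0.30). Ip6k2, Spata2l and Blm had 20.3, 12.01 and 4.25 FPKM in knockout 3, the lowest of the 5 livers for each. With 5 values per gene, close profiles among 10819 genes may arise by chance, which was not tested.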

How the data were processed

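Groups were taken from the labels. The deposited values are FPKM per gene symbol, made by the authors and given with 2 decimals; per the submitters' processing notes HISAT2, StringTie and DESeq2 were used with mm10, with no versions or roles stated. Both deposited tables held identical values in all 33589 rows. Depth is unknown, since no common step was found that most low FPKM of short 1-exon genes were whole multiples of. At the best of the steps searched, at most 35.8% lay within 0.1 of a whole multiple. Any values would give 20% at 1 fixed step, and more at the best of many steps.

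Genes averaging 1 FPKM or more (10820) were fitted as log2(FPKM + 1) with limma (version 3.58.1, R 4.3.3, prior variance following the mean), with genotype as the only term, two-sided, with Benjamini-Hochberg adjustment over all genes and a threshold of 0.05. The fit was also run on normal values simulated from its own variances. That setting cannot show how the fit handles outlying livers such as those seen here. Fold changes on this scale understate those of low genes. Ratios used exact permutation over 10 splits. Promoters came from RefSeq, gene positions from GENCODE M21.

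The members, gene lists and alternatives were chosen with earlier results of these data known. Named beside the 10 genes are 15 preset genes and, of each further list, up to 5 genes with the smallest p, as well as 3 genes closest in profile to each of Cyp7a1, Cyp8b1 and Nr0b2. A gene that this rule takes is not reported here. The markers Lgr5, Sox9, Tspan8, Krt7, Cftr and Sctr, all under the filter, are named outside that rule. Arntl was looked up as Bmal1, and Hbb-b2 had no row. Alternatives were another pseudocount, filters and scalings, library weights, each library left out and a replicate block. The labels number livers within genotype, and nothing ties equal numbers together.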

Additional observations from a re-analysis of the deposited data

How the results depend on the processing

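Under 12 alternative settings none of the 10 genes passed (adjusted p between 0.107 and 0.999), nor did any of the further bile acid genes, and between 5 and 7 of the 10 had a higher mean in knockouts. The number of genes passing over the whole table was 0, and between 0 and 1 with 1 library left out, the 1 being Hamp without control 1, and 5 with a replicate block. That block, in which knockout 3 has no partner, gave -0.016 for Slc10a1 and 0.0078 for Baat, turning both signs, and put 4 of the 10 genes under an unadjusted p of 0.05, against 966 of all 10820 genes. Its smallest adjusted p among the 10 genes was 0.107, for Cyp7b1, which was higher in knockout 1 than in control 1 and in knockout 2 than in control 2. Deviations from the group means correlated at 0.23 between the livers numbered 1 and at 0.20 between those numbered 2. With 2 controls, the deviation of control 2 is that of control 1 with its sign turned. Knockout 1 thus gave -0.23 with control 2, and knockout 2 gave -0.20 with control 1. The values are therefore not independent checks of a pairing, and these are livers that share only a number.

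Leaving out 1 library turned the sign of several small values, and the cause was not tested. Cyp7a1 ranged from -0.096 to 1.09, Cyp27a1 from -0.087 to 0.40, Slc10a1 from -0.10 to 0.26, Abcb11 from -0.0017 to 0.35 and Baat from -0.11 to 0.093. Differences of log2 ratios ranged from -0.38 to 1.45 for Cyp7b1 to Cyp7a1, from -0.26 to 0.46 for Abcb11 to Slc10a1, from -1.05 to 0.28 for Cyp27a1 to Cyp7a1, from 0.099 to 0.88 for Cyp8b1 to Cyp7a1, from -0.96 to -0.32 for Nr0b2 to Nr1h4 and from -0.14 to -0.022 for Slc27a5 to Baat. Of the further genes named, Cyp2c70 ranged from -0.17 to 0.73, Slc51b from -0.56 to 0.077, Klb from 0.038 to 0.42 and Nr5a2 from 0.025 to 0.25, and the small values of Hsd3b7, Slco1b2, Abcc2, Fgfr4 and Hnf4a also turned sign. Cyp8b1, Cyp7b1, Nr1h4, Nr0b2 and Slc27a5 kept their sign in all 12. Depth is unknown, so no interval for counting error can be given, and with 3 knockouts against 2 controls the intervals printed for Cyp7a1, Cyp8b1, Cyp7b1 and Nr0b2 span more than a 2-fold range.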
